A study of Mus musculus with 12 samples.

Results

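The quantity described here is the difference between ovary and testis in the germ-to-soma contrast, in mouse embryos at E13.5 (embryonic day). For each gene it is the female germ cell mean minus the female soma mean, less the male germ cell mean minus the male soma mean, on a log2 scale. It is called the interaction below. A positive interaction means that germ cells stood higher against their soma in the ovary than in the testis, and a negative one the reverse. All 12307 autosomal genes of the 12845 genes in the deposited tables were taken, and 481 X-linked genes, 5 Y-linked genes and 52 genes without a location were set aside. No gene was chosen by its values.

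The study measured RNA in 12 libraries, 3 for each of 4 groups: PGC and soma of the male, and PGC and soma of the female. PGC stands for primordial germ cell, the embryonic precursor of eggs and sperm. All 4 groups came from untreated Oct4GFPxICR embryos, in which a green fluorescent reporter marks germ cells. Sorting took PGCs as the cells with GFP and soma as the cells without it, and ERCC spike-in RNA was added in proportion to cell number before directional mRNA libraries were made. The GFP-negative gate holds every other gonadal cell, so the soma groups are mixtures. In such bulk samples, fewer cells of a type and less RNA per cell cannot be told apart. The labels do not say whether replicates came from separate litters or how many embryos were pooled, so p-values measure the spread between these libraries.

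At this age germ cells and soma are both committing to a sex. In the testis, Sertoli cells surround the germ cells, fetal Leydig cells begin steroid synthesis, and germ cells turn off pluripotency genes late and enter mitotic arrest. In the ovary, pregranulosa cells surround the germ cells, and retinoic acid and BMP signals accompany their entry into meiotic prophase. A germ-to-soma contrast that differs between the sexes can therefore come from either compartment of either gonad.

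Depth ran from 6454322 to 24791414 reads per library over the genes of the tables. Levels are given as CPM, each library's reads of a gene scaled to a common total. They are not corrected for gene length and are compared only within a gene. Ddx4, a germ cell helicase, was at 628 to 916 CPM in PGC libraries and at most 35.6 CPM in soma, and Wt1, a soma transcription factor, at 131 to 352 CPM in soma. Summed over the germ cell identity list, soma libraries held 1.52% to 1.81% of the PGC level in the male and 5.61%, 6.76% and 2.86% in female soma 1, 2 and 3. Summed erythroid markers reached 29702, 27745 and 17744 CPM in female soma and 3534, 8689 and 4280 CPM in male soma. The 2 groups did not overlap in either sum. Wt1 was at 1.07, 8.68 and 1.53 CPM in female PGC 1, 2 and 3 and macrophage markers summed to 6.22, 18.4 and 7.46 CPM, highest in female PGC 2 in both cases, while the Sertoli sum was lowest there (193, 190.1 and 205 CPM). Counts that rest on female soma 1, female soma 2 and female PGC 2 are also given without these 3 libraries. That leaves 1 female soma library, which the fit assumes to vary like the other groups.

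In the read depth table, which describes the composition of the RNA, an interaction was called by limma at an adjusted p of 0.05 for 6972 of 12307 genes (56.7%). It was positive for 3356 genes (27.3%) and negative for 3616 (29.4%). The median interaction was -0.03, with quartiles of -0.47 and 0.46. Interactions of at least 1 in absolute size numbered 1350 positive and 1128 negative, and 31 positive and 14 negative ones reached 4. Of the 6972 calls, 6924 had the same sign when the test was run on reads with limma's voom weighting, which called 3158 positive (25.7%) and 3266 negative (26.5%). The read depth scale compresses low levels: its interaction was a median of 0.32 of the voom value for 1478 genes under 100 mean reads and 0.78 for the 3970 most abundant genes.

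Each called gene was then assigned to the compartment that differed between the sexes. Female and male PGCs differed at 8018 genes (65.1%), against 2966 genes (24.1%) for female and male soma. Of the 6972 interaction genes, 4733 (67.9%) differed between the sexes in PGCs only and 761 (10.9%) in soma only by these calls. Another 823 (11.8%) were crossed, called in both compartments with opposite signs, 454 (6.51%) were called in both with the same sign, and 201 (2.88%) in neither. Within a compartment, the sex whose mean lay farther from the other compartment's level was taken as the departing group. The male PGC departed for 2743 genes, the female PGC for 1990, the male soma for 408 and the female soma for 353. Male soma gave 286 positive and 122 negative genes, and female soma 71 positive and 282 negative. This split follows largely from the rule. Where soma lies above PGCs, the rule gives positive genes to male soma and negative ones to female soma, and the reverse where soma lies below. It is therefore not a directional trait of either soma group.

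**Figure D1:**
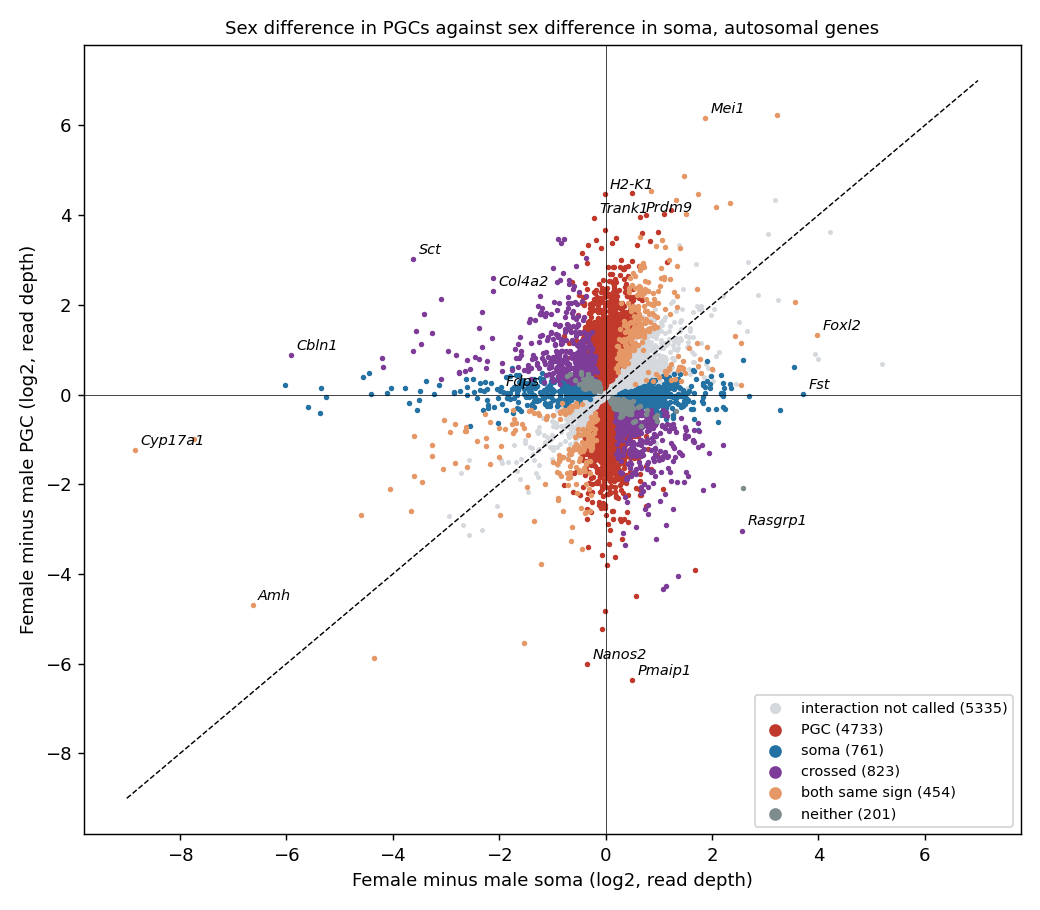
Each point is an autosomal gene, with the female minus male difference in soma on the x axis and in PGCs on the y axis, both in log2 units of the read depth table. Genes on the dashed line have an interaction of 0. Colours give the compartment class of the 6972 called genes: the 4733 genes of the PGC class form the vertical band, the 761 genes of the soma class the horizontal band, and the 823 crossed genes fill the upper left and lower right.

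Of the 10 most positive interactions among named genes, 5 were on the list of the steroid-making fetal Leydig cell. The male soma was the departing group for 4 of the 10, another 4 were crossed and 2 were called in both compartments with the same sign. Star, which carries cholesterol into mitochondria (chr8:25806555-25815982, plus strand; coordinates are GRCm38), was at 640.5, 409 and 620.0 CPM in male soma 1, 2 and 3. It was at 4.33, 2.15 and 3.69 CPM in female soma, 1.24, 1.64 and 3.10 CPM in male PGC and 2.64, 2.32 and 2.68 CPM in female PGC. Male soma was high and the other 3 groups were all under 5 CPM, so male soma alone carried the interaction of 6.26 ± 0.33 (SE; adjusted p = 1.33e-08, limma). Cyp17a1, the hydroxylase and lyase of androgen synthesis (chr19:46667165-46673172, minus strand), had the highest interaction of the named genes, at 7.60 ± 0.48 (adjusted p = 5.45e-08). It was at 1968, 1335 and 1955 CPM in male soma and at 0.889, 1.69 and 0.763 CPM in female soma, while male PGC held 1.58, 0.451 and 2.65 CPM and female PGC 0.269, 0.31 and 0.287 CPM. Male PGC stood above female PGC in each library, so Cyp17a1 was called in both compartments.

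Cyp11a1, the side-chain cleavage enzyme that starts steroid synthesis, was likewise highest in male soma and lowest in female PGC, with an interaction of 6.75 ± 0.50. Lhcgr, the luteinizing hormone receptor, was at 76.2, 59.7 and 81.1 CPM in male soma and at 1.00, 0.92 and 0.89 CPM in female soma (interaction 5.20 ± 0.39). Hsd3b1, a steroid dehydrogenase, was at 673, 608 and 704 and 6.56, 8.13 and 6.36 CPM in the same groups (interaction 5.32 ± 0.42), although its reads could be shared with near-identical family members. Crhr1, the corticotropin-releasing hormone receptor, was at 46.4, 41.6 and 54.8 CPM in male soma. It had 0 reads in all male PGC and female soma libraries, which allows up to 0.0476 and 0.128 CPM over each group (3 reads). Of 16 measured members of the fetal Leydig list, 13 had a positive and 2 a negative interaction, against 27.3% and 29.4% of autosomal genes. The list's median was 2.98 against -0.03 over all autosomal genes. The male soma was the departing group for 6 of the 15 called members, and 13 of 16 were called lower in female than in male soma (11% of autosomal genes were).

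Sertoli cell genes were positive by read depth, at a share that the test on reads did not repeat. Of 22 measured members, 16 had a positive interaction and 0 a negative one, against 27.3% and 29.4% of autosomal genes. The list's median was 1.87. The voom test called 6 positive, near the 25.7% of all autosomal genes, and 1 negative. Amh, the hormone that removes the Müllerian duct, was at 479, 385 and 446 CPM in male soma and 0.556, 2.46 and 1.02 CPM in female soma. It was also at 67.6, 30.6 and 27.7 CPM in male PGC against 0.448, 0.465 and 0.0956 CPM in female PGC. Males were thus higher in both compartments without overlap, and the interaction of 1.94 ± 0.44 (adjusted p = 0.0019) lost its call with voom (1.64, adjusted p = 0.54). In all, 9 of the Sertoli members behaved like Amh, called in both compartments with 1 sign. Col9a3, a collagen chain of the list, differed in soma only: 101, 108 and 112 CPM in male soma, 8.39 ± 4.98 CPM (SD, n = 3) in female soma, and 7.51 to 15.9 CPM in all 6 PGC libraries. Its interaction was 2.92 ± 0.36 (adjusted p = 1.51e-05). Cyp26b1, the retinoic acid-degrading enzyme of the fetal testis, was at 312, 396 and 367 CPM in male soma and 9.78, 7.67 and 13.3 CPM in female soma, with an interaction of 4.79 ± 0.24. The list summed to 284 to 383 CPM in male PGC and 190.1 to 205 CPM in female PGC, and the part of somatic RNA in the PGC values was not tested.

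**Figure D2:**
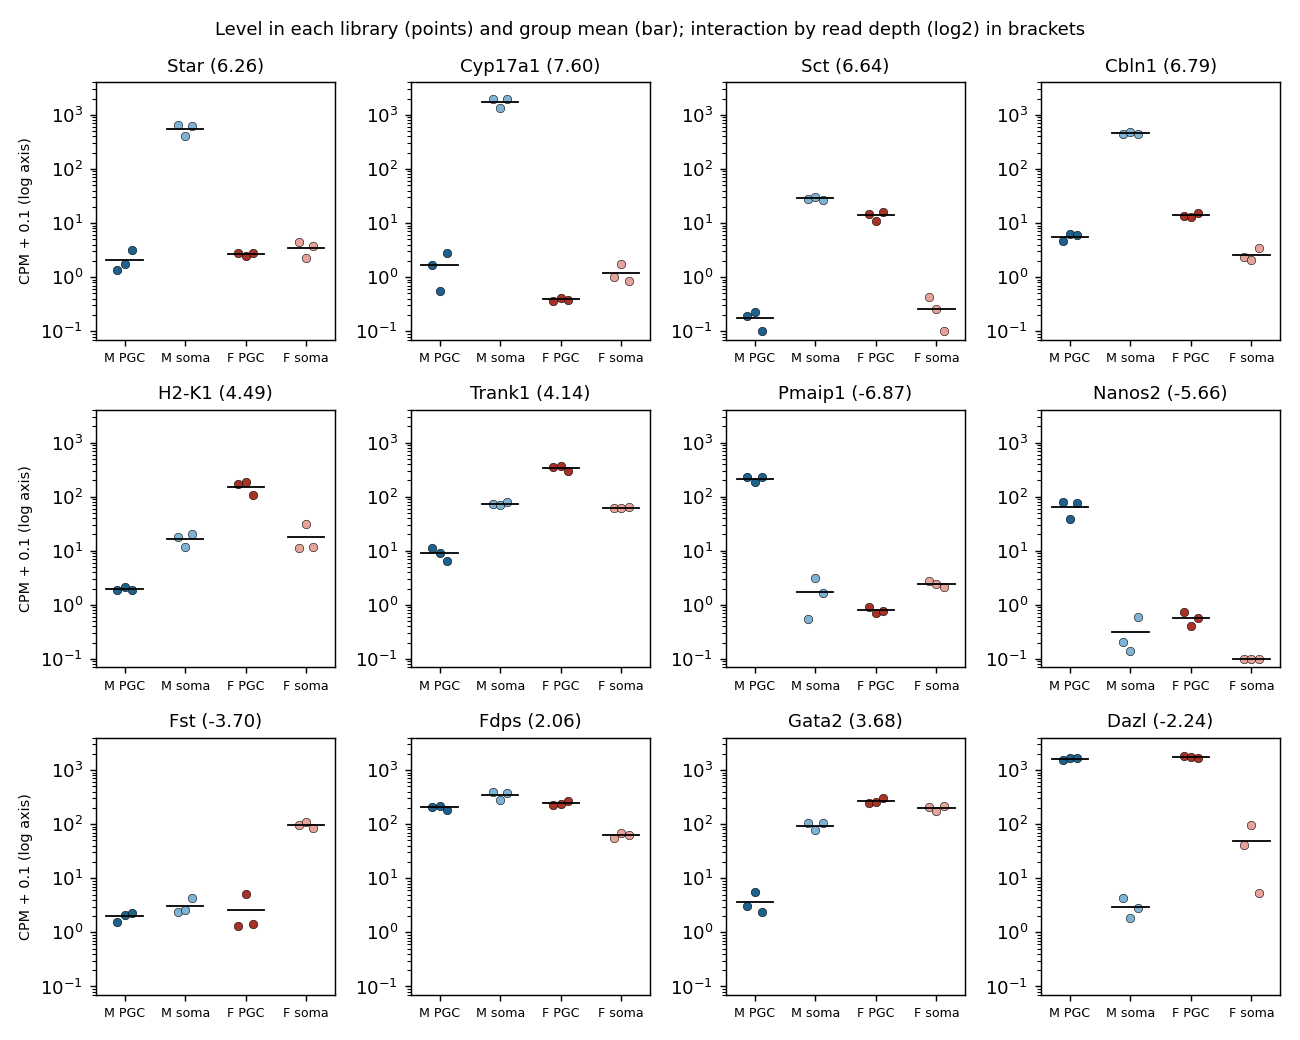
Level of 12 genes in each library, as CPM plus 0.1 on a log axis, so that a library with 0 reads sits at 0.1. Points are the 3 libraries of each group (M male, F female), the bar is their mean, and the interaction by read depth is in brackets. Star and Cyp17a1 stand high in male soma alone, Pmaip1 and Nanos2 in male PGC alone, Fst in female soma alone, and Fdps is lowest in female soma.

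Cholesterol synthesis, which supplies the substrate of steroids, was lower in the ovary soma than in the testis soma. Summed over all 23 measured genes on any chromosome, it averaged 4032 CPM in male soma and 1394 CPM in female soma. Both PGC groups lay between, at 2779 CPM in the male and 2333 CPM in the female. Of 21 measured autosomal members, 16 had a positive interaction and 1 a negative one, against 27.3% and 29.4% of autosomal genes. The list's median was 1.09. All 21 were called lower in female than in male soma (11% of autosomal genes were). Female soma was the departing group for 4 members and male soma for 3, while 4 were crossed and 6 were called in both compartments with the same sign. Fdps, which makes farnesyl diphosphate, was at 54.7, 69.04 and 62.7 CPM in female soma and at 393, 286 and 380.0 CPM in male soma. Both PGC groups lay between, at 211, 218 and 185 CPM in the male and 225, 234 and 269 CPM in the female, and the PGC difference of 0.08 was not called. Female soma stood below every other library, and the interaction was 2.06 ± 0.14 (adjusted p = 8.90e-08). Idi1, the isomerase a step earlier, was at 45.01, 47.2 and 43.9 CPM in female soma against 223, 168 and 214 CPM in male soma (interaction 1.80 ± 0.11). Dhcr7, a late enzyme of the pathway, gave 1.75 ± 0.17, with PGCs above soma in the ovary and below it in the testis. The pathway's transcription factor Srebf2 had an interaction of -0.09 ± 0.12 (adjusted p = 0.55), with female minus male differences of -0.50 in soma and -0.59 in PGCs. The count of 16 positive and 1 negative was the same with voom and without the 3 female libraries, where 22.2% of autosomal genes were positive and 24.9% negative.

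Promoters of the steroid, cholesterol and meiotic lists were searched for a motif each in the 250 bases before the start (RefSeq, GRCm38.p6), on both strands. The NR5A1 motif CAAGGNCA, of a steroidogenic factor, was in 0 of 10 matched fetal Leydig promoters and in 5.52% of 27025 promoters. Star and Cyp17a1 were not among the 10 matched, and 2 windows, of Cyp11a1 and Por, lay 8387 and 19112 bases from the gene start used here. The sterol regulatory element TCACNCCAC was in 1 of 15 cholesterol promoters and in 1.03% of all. That promoter is printed to show the match, in capitals, before Hmgcs1, an early synthase of the pathway (chr13:119690101-119690350, plus strand).
Hmgcs1: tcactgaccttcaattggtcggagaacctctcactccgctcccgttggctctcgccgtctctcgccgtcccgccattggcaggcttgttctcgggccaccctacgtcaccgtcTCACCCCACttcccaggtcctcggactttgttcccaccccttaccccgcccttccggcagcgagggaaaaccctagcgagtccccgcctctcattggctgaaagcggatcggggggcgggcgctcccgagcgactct
Hmgcs1 was at 719.8, 545 and 633 CPM in male soma and 197, 188 and 220.0 CPM in female soma, with an interaction of 0.92 ± 0.13 (adjusted p = 6.81e-05). PGCs were called above soma in the ovary and below it in the testis.

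Negative interactions carried by the ovary soma included pregranulosa genes. Fst, follistatin, which binds activin, was at 97.2, 109 and 85.6 CPM in female soma, 2.29, 2.50 and 4.24 CPM in male soma, 1.21, 4.96 and 1.34 CPM in female PGC and 1.48, 2.01 and 2.20 CPM in male PGC. Female soma stood alone, with an interaction of -3.70 ± 0.38 (adjusted p = 2.88e-06). Lgr5, a receptor of the Wnt pathway, was at 49.4, 59.5 and 43.2 CPM in female soma and 4.48, 5.24 and 8.27 CPM in male soma (interaction -2.18 ± 0.40). Foxl2, the ovarian forkhead factor, was high in female soma at 71.2, 63.7 and 51.5 CPM and under 5 CPM in every other library. Its interaction of -2.65 ± 0.43 was not called with voom (-2.38, adjusted p = 0.13). Wnt4, a signal of the ovary, went the other way: the soma groups overlapped (187, 131 and 205 CPM in female, 168, 126 and 116 CPM in male), and female PGC stood at 6.80, 11.2 and 6.597 CPM against 0.526, 0.82 and 0.734 CPM in male PGC (interaction 1.79 ± 0.26). Over the 17 measured pregranulosa members, 5 were positive and 5 negative, near the 27.3% and 29.4% of all autosomal genes. Their median was -0.46 by read depth, 0.01 with voom and 0.90 per cell, where the autosomal median was 0.89.

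Other genes with female soma as the departing group included blood, macrophage and neuronal genes. Hbb-y, an embryonic globin, was at 23610.0, 21320.0 and 14130.0 CPM in female soma and 2369, 6747 and 3097 CPM in male soma, with an interaction of -2.39 ± 0.44 that voom did not call (adjusted p = 0.27). Of 8 measured erythroid members 5 were negative and 0 positive, and of 16 macrophage members 7 were negative and 0 positive. All 12 of these calls had female soma as the departing group, and voom called 0 of them. At an unadjusted p of 0.05 voom gave 0 erythroid members, 1 positive macrophage member and 1 negative one. The direction of the macrophage list turned with the scale. Its median was -0.48 by read depth, 0.37 with voom and 1.31 per cell, where 6 members were positive and 0 negative. Per cell, all autosomal genes had a median of 0.89 and 42.2% were positive. Without the 3 female libraries the read depth median of the erythroid list was -0.59, against -1.11 with all 12. That of the macrophage list was -0.34. Gap43, a growth cone protein of neurons, was at 36.6, 68.9 and 5.72 CPM in female soma 1, 2 and 3. Miat, a long noncoding RNA, was at 132, 136 and 24.9 CPM in the same libraries. Female soma 3 was the lowest for both, and voom called neither (adjusted p = 0.84 and 0.41). Without the 3 female libraries Gap43 had an interaction of -0.63 that was not called, against -2.94 with all 12. Mybpc1, a myosin-binding protein, was high in all 3 at 61.1, 44.95 and 55.9 CPM (interaction -2.73 ± 0.30). The part of cell mixture in these values was not tested.

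Male PGCs were the group that departed most often. Pmaip1, the proapoptotic factor Noxa, was at 230.2, 184 and 230.0 CPM in male PGC and at 0.806, 0.62 and 0.669 CPM in female PGC. Male soma held 0.437, 2.98 and 1.52 CPM and female soma 2.67, 2.30 and 2.03 CPM. Male PGC stood alone, and Pmaip1 had the most negative interaction of the named genes, -6.87 ± 0.40 (adjusted p = 3.05e-08). Nanos2, which directs male germ cell fate (chr7:18987400-18988962, plus strand), was at 81.02, 38.5 and 75.1 CPM in male PGC, 0.627, 0.31 and 0.478 CPM in female PGC and 0.109, 0.0403 and 0.489 CPM in male soma. Female soma had 0 reads, which allows up to 0.128 CPM, and the fitted value depends on how a count of 0 is scaled. By read depth the interaction was -5.66 ± 0.48 (adjusted p = 6.83e-07), and with voom -5.59 (adjusted p = 0.1). Of the 14 measured members of the male programme list, 13 were negative and 0 positive, against 29.4% and 27.3% of autosomal genes. The list's median was -1.85. Voom called 8 negative, where 26.5% of autosomal genes were. PGCs were called lower in the female for 12 of the 14 (33.2% of autosomal genes).

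Others of the 10 most negative named genes were also carried by male PGC. Hesx1, a homeobox factor, was at 42.9, 37.00 and 46.9 CPM in male PGC and at most 0.763 CPM in all other libraries (interaction -5.05 ± 0.37). Otx2, another homeobox factor, was at 36.8, 47.1 and 36.8 CPM in male PGC and had 0 reads in every library of female PGC and female soma, which allows up to 0.0764 and 0.128 CPM (interaction -4.80 ± 0.16). Egr4, an early growth response factor, was at 113, 58.00 and 90.6 CPM in male PGC and 1.70, 1.08 and 1.05 CPM in female PGC. Its interaction of -5.16 ± 0.45 was as large with voom but not called there (-5.75 ± 2.52, adjusted p = 0.067). Male PGC stood clear of the 3 other groups for all 3 genes. Rimbp2, a presynaptic protein, was at 101, 116 and 136 CPM in male PGC, and its interaction of -5.60 ± 0.99 had the widest error of the 20 most extreme genes.

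Germ cell identity and pluripotency genes were negative as a group. Of 25 measured members 22 were negative and 0 positive, against 29.4% and 27.3% of autosomal genes, with a median of -1.93. Voom called 17 negative and 0 positive, where 26.5% of autosomal genes were negative. Pou5f1, the pluripotency factor whose promoter drives the reporter, was at 782, 754 and 739.7 CPM in male PGC and 238, 248 and 334 CPM in female PGC. In soma it was at 1.53, 0.565 and 1.14 CPM in the male and 8.67, 5.98 and 1.53 CPM in the female. PGCs were higher in the male without overlap, soma was called higher in the female, and the gene was crossed, with an interaction of -2.70 ± 0.43 (adjusted p = 1.41e-04). The higher soma levels were those of female soma 1 and 2, while female soma 3 lay at the level of male soma 1. Female soma 1 and 2 also held more of the germ cell identity sum (5.61% and 6.76% of the PGC level) than female soma 3 (2.86%). The part of germ cell RNA in this soma call was not tested. Prdm1, a repressor of somatic genes in early germ cells, was at 105, 128 and 127 CPM in male PGC, 43.01, 40.6 and 61.8 CPM in female PGC, 18.00, 17.03 and 20.5 CPM in female soma and 2.29, 4.07 and 2.66 CPM in male soma (interaction -2.90 ± 0.20). Nanos3, which protects germ cells, was at 33.4, 17.5 and 26.4 CPM in male PGC and 2.51, 0.62 and 4.88 CPM in female PGC (interaction -2.89 ± 0.36). Male PGC departed for 11 members and male soma for 5, and 4 were crossed. Without the 3 female libraries the list's median was -1.21.

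Negative genes with male soma as the departing group included germ cell genes with reads in female soma. The rule named male soma because it lay farther from the high PGC level. The soma levels that stood out were those of female soma. Dazl, a germ cell RNA-binding protein, was high in both PGC groups, at 1523, 1650.0 and 1644 CPM in the male and 1835, 1736 and 1659 CPM in the female. In soma it was at 4.15, 1.73 and 2.72 CPM in the male and 40.5, 98.2 and 5.21 CPM in the female, with female soma 1 and 2 high and female soma 3 near the male level. The interaction of -2.24 ± 0.70 (adjusted p = 0.014) was -0.58 and not called without the 3 female libraries, and it was not called with a robust variance model. Sall4, a pluripotency factor, was at 11.2, 7.36 and 1.14 CPM in female soma and at most 0.979 CPM in male soma (interaction -2.53 ± 0.54). Ina, a neurofilament subunit that both PGC groups held above 19 CPM, was at 5.67, 17.3 and 1.40 CPM in female soma and 0, 0.202 and 0.217 CPM in male soma (interaction -2.02 ± 0.47). Chd5, a chromatin remodeller, stayed above male soma in all 3 female soma libraries, at 24.1, 52.5 and 22.1 against 2.73, 2.10 and 5.27 CPM (interaction -2.49 ± 0.35). The piRNA list, small RNA factors that silence transposons, followed the same libraries. By read depth 10 of 21 were negative, against 29.4% of autosomal genes, with a median of -1.04. Without the 3 female libraries the median was -0.28. Voom called 3 negative, under the 26.5% of all autosomal genes. The read depth count was 5 without female soma 1, 6 without female soma 2 or male soma 3, and 16 without female soma 3. Tdrd5 was called with all 12 libraries and was higher in male PGC, at 568, 370.1 and 535 CPM against 79.4, 72.3 and 78.4 CPM in female PGC (interaction -3.40 ± 0.33). The share of germ cell RNA in soma moved with these results, and its part in them was not tested.

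Ribosome biogenesis was negative nearly throughout. Of 33 measured members, 29 were negative and 0 positive, against 29.4% and 27.3% of autosomal genes, with a median of -0.87. The male PGC was the departing group for 25 of the 29 and the other 4 were crossed. Ncl, nucleolin, was at 2189, 2153 and 2130.0 CPM in male PGC and 1387, 1359 and 1419 CPM in female PGC, and at 675, 639.7 and 671 CPM in male soma and 661, 876 and 819 CPM in female soma. Male PGC stood above female PGC, and both above soma, without overlap (interaction -0.81 ± 0.10, adjusted p = 1.24e-05). Rrp9, a processing factor of small-subunit RNA, was at 129, 127 and 112 CPM in male PGC and at most 34.2 CPM in all 9 other libraries (interaction -1.92 ± 0.18). Utp15, of the same processome, was above soma in male PGC and below it in female PGC, with an interaction of -1.63 ± 0.13. With voom the list gave 29 negative and 0 positive calls, against 26.5% and 25.7% of autosomal genes. Without the 3 female libraries its median was -0.90.

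Glycolysis had 11 of 18 negative and 3 positive, against 29.4% and 27.3% of autosomal genes. Its median was -0.62 by read depth and 0.08 per cell, where the autosomal median was 0.89. Pkm, pyruvate kinase, was at 1920.0, 1991 and 1718 CPM in male PGC, 672, 665 and 771 CPM in female PGC, 836, 736 and 818 CPM in male soma and 796, 762 and 905 CPM in female soma. Male PGC stood alone above the 9 other libraries, so PGCs were above soma in the testis only (interaction -1.28 ± 0.10, adjusted p = 4.50e-07). Slc2a1, a glucose transporter, was carried by the female PGC, at 26.6, 26.3 and 29.2 CPM against 117, 105 and 102 CPM in male PGC (interaction -1.78 ± 0.19). Nodal and activin signalling, active in male germ cells at this age, gave 12 negative and 3 positive of 18, median -0.85. These calls were spread over the groups: male PGC departed for 4 members, male soma for 4, female PGC for 2 and female soma for 1. Another 2 were crossed and 2 were called in both compartments with the same sign. The positive members included Inha, the inhibin subunit of Sertoli cells, with 429.6, 320.0 and 386 CPM in male soma and 28.6, 23.6 and 20.98 CPM in female soma (interaction 4.64 ± 0.28). Tet1, an enzyme that oxidizes methylated cytosine, was at 290.5, 414 and 412 CPM in male PGC and 92.2, 85.2 and 115 CPM in female PGC (interaction -1.68 ± 0.18).

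Male PGCs also departed downward, for 1151 genes with a positive interaction. Trank1 was at 11.2, 8.98 and 6.38 CPM in male PGC and 345, 361 and 297 CPM in female PGC, with 72.9, 68.8 and 79.8 CPM in male soma and 60.4, 62.8 and 64.1 CPM in female soma. Female PGC stood above both soma groups and male PGC below them, so the germ-to-soma difference had opposite signs (interaction 4.14 ± 0.16, adjusted p = 1.15e-09). Lamb2, a laminin chain of basement membranes, was at 8.13, 6.11 and 6.61 CPM in male PGC and between 170 and 272 CPM in the 9 other libraries (interaction 3.68 ± 0.17). Dip2c and Tchh, the hair follicle protein trichohyalin, had the same shape, with interactions of 3.63 ± 0.22 and 3.60 ± 0.26. Notch1, a receptor of short-range signals, was at 4.73, 5.74 and 4.52 CPM in male PGC and 47.3, 51.4 and 62.7 CPM in female PGC (interaction 2.36 ± 0.16). Its relative Notch3 was opposite, at 186, 180.3 and 215 CPM in male PGC and 13.6, 11.8 and 17.02 CPM in female PGC (interaction -2.33 ± 0.15).

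Female PGCs departed upward for 1021 genes and downward for 969. H2-K1, a classical class I antigen-presenting chain, was at 168, 188 and 105 CPM in female PGC and 1.82, 2.05 and 1.75 CPM in male PGC. Male soma held 17.9, 11.4 and 20.1 CPM and female soma 11.2, 30.99 and 11.7 CPM. Female PGC stood above soma and male PGC below it, without overlap (interaction 4.49 ± 0.36, adjusted p = 4.36e-07). Its neighbour in the family, H2-D1, gave 2.17 ± 0.44, and reads of these similar genes could be shared. Tapbp, which loads peptides onto these chains, went down in female PGC instead, at 15.3, 16.6 and 16.5 CPM against 87.5, 69.4 and 73.5 CPM in male PGC (interaction -1.69 ± 0.13).

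Meiotic genes were called in PGCs more often than in the interaction. Of 35 measured members, 29 were called higher in female than in male PGC (32% of autosomal genes were). In the interaction 16 were positive and 2 negative, against 27.3% and 29.4% of autosomal genes, with a median of 0.52. Female soma was called higher than male soma for 19 of the 35 (13.1% of autosomal genes). With voom 8 were positive, under the 25.7% of all autosomal genes, and 2 negative. Without female soma 3 the counts were 13 positive and 7 negative, with a median of 0.23, and without the 3 female libraries 22 were positive and 0 negative, with a median of 1.20. Mei1, required for meiotic breaks, was at 79.5, 85.2 and 38.3 CPM in female PGC and at most 0.191 CPM in male PGC. Its level was 0.889, 10.7 and 0.381 CPM in female soma and at most 0.161 CPM in male soma, so female soma 2 stood apart (interaction 4.28 ± 0.83, adjusted p = 6.17e-04; with voom adjusted p = 0.12). Smc1b, a meiotic cohesin subunit, was at 1323, 1274 and 937 CPM in female PGC and 169, 181 and 219.8 CPM in male PGC. Female soma held 20.3, 89.9 and 2.54 CPM and male soma at most 0.489 CPM, and the interaction of -1.13 ± 0.85 was not called (adjusted p = 0.27). Stag3, another cohesin subunit, was called higher in the female in both compartments, and its interaction was -0.04 ± 0.43 (adjusted p = 0.95).

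Prdm9, the methyltransferase that marks recombination hotspots, was carried by female PGC. It was at 114, 114 and 50.9 CPM in female PGC, 1.20, 1.35 and 2.88 CPM in male PGC, 1.53, 2.54 and 4.08 CPM in male soma and 3.67, 14.9 and 2.42 CPM in female soma. The female PGC libraries stood above all others, and the interaction was 3.302 ± 0.552 (adjusted p = 2.01e-04). Its promoter is shown because it holds the motif CNCCTCAG of STRA8, the factor that opens the meiotic programme, in capitals (chr17:15564355-15564604, minus strand).
Prdm9: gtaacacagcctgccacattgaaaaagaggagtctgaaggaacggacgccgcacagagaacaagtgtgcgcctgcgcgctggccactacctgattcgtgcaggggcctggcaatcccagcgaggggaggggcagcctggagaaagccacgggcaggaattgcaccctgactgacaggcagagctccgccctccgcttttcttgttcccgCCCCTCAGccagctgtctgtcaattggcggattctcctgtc
The motif was in 5 of 30 matched meiotic promoters, 3 of them among the 13 with a positive interaction, and in 6.35% of all promoters. The windows of Mei1, Hsf2bp and Msh4 lay 12480, 1841 and 1247 bases from the gene start used here. Rad51ap2, a partner of the recombinase, was at 39.6, 37.2 and 20.1 CPM in female PGC and at most 0.86 CPM in male PGC (interaction 3.67 ± 0.62).

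BMP signalling and its targets gave 16 positive and 4 negative interactions of 24 measured members, median 0.72. Gata2, a transcription factor downstream of BMP, was at 248, 257 and 305 CPM in female PGC and 3.01, 5.58 and 2.26 CPM in male PGC, with 210.2, 172 and 219 CPM in female soma and 104, 76.7 and 103 CPM in male soma. Male PGC was the low group, and the interaction was 3.68 ± 0.23 (adjusted p = 5.30e-08). Msx2, a homeobox target of BMP, was at 41.3, 41.5 and 68.5 CPM in female PGC and at most 2.15 CPM in male PGC (interaction 4.20 ± 0.31). Dlx3, another homeobox gene, was at 41.7, 41.2 and 69.1 CPM in female PGC and at most 2.22 CPM elsewhere (interaction 4.00 ± 0.41). The ligand Bmp4 was opposite to these targets, at 0.985, 1.24 and 3.82 CPM in female PGC and 31.7, 39.1 and 39.6 CPM in male PGC, with 15.2 to 25.4 CPM in the 6 soma libraries (interaction -3.04 ± 0.26). The receptor Bmpr1a gave 0.55 ± 0.12, which was 0.40 and not called without the 3 female libraries. In the retinoic acid pathway 3 of 16 members were positive and 6 negative, near the 27.3% and 29.4% of all autosomal genes. With voom 4 were positive and 5 negative. Aldh1a2, which makes retinoic acid, was lower in female PGC, at 3.89, 9.61 and 2.01 CPM against 24.5, 19.98 and 25.8 CPM in male PGC (interaction -2.41 ± 0.42).

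Among genes that fell in female PGC, Abcd2, a peroxisomal fatty acid transporter, was at 1.43, 1.70 and 0.287 CPM against 43.7, 16.1 and 38.6 CPM in male PGC (interaction -3.27 ± 0.34). Adgrg1, an adhesion receptor, was at 2.51, 6.04 and 4.30 CPM in female PGC and at 75.7 to 125 CPM in the 9 other libraries (interaction -3.08 ± 0.23). Female PGC was the low group for both genes, without overlap.

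The germ-to-soma contrast itself had opposite signs in ovary and testis, called in both, for 879 autosomal genes (7.14%): 434 were higher in PGCs in the ovary and lower in the testis, and 445 the reverse. Of these, 617 belonged to the PGC class, 191 were crossed and 24 belonged to the soma class. Sct, the hormone secretin (chr7:141278330-141279133, minus strand), was at 14.6, 10.8 and 15.9 CPM in female PGC and 28.1, 30.9 and 26.6 CPM in male soma, and at 0.0956, 0.123 and 0 CPM in male PGC and 0.333, 0.153 and 0 CPM in female soma. It thus marked germ cells in the ovary and soma in the testis, without overlap (interaction 6.64 ± 0.20, adjusted p = 8.20e-11). Cbln1, a secreted synapse organizer (chr8:87468405-87472609, minus strand), was at 444, 483 and 444 CPM in male soma, 13.2, 12.9 and 15.1 CPM in female PGC, 4.54, 6.15 and 5.82 CPM in male PGC and 2.22, 1.99 and 3.31 CPM in female soma. The germ-to-soma difference was 1.74 in the ovary and -5.05 in the testis, and male soma gave most of the interaction of 6.79 ± 0.18.

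The reverse pattern was held by Rasgrp1, an activator of Ras. It was at 39.8, 54.8 and 47.99 CPM in male PGC and 14.6, 12.1 and 10.04 CPM in female soma, and at 2.24, 1.55 and 3.44 CPM in female PGC and 0.655, 0.0403 and 0.598 CPM in male soma (interaction -5.60 ± 0.29, adjusted p = 1.40e-08). Krt17, a keratin, was at 28.5, 28.5 and 37.8 CPM in male PGC and at most 3.43 CPM in the others (interaction -5.40 ± 0.25). Fbxo41, an F-box protein, was at 128, 79.1 and 127 CPM in male PGC and 1.79, 3.10 and 1.82 CPM in female PGC. It was crossed, but its contrast in the ovary, -0.48, was not called.

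Basement membrane collagen showed the crossed shape in abundant genes. Col4a1 was at 3243, 3138 and 3006 CPM in male soma, 454, 421 and 504 CPM in female soma, 47.7, 62.8 and 34.99 CPM in female PGC and 10.8, 7.67 and 12.3 CPM in male PGC. Soma was higher in the male and PGCs in the female, without overlap, and the interaction was 3.86 ± 0.20 (adjusted p = 1.32e-08). Its partner Col4a2 gave 4.41 ± 0.15. The fibrillar collagens Col1a1 and Col3a1 had interactions of -0.93 ± 0.45 (adjusted p = 0.091) and -0.26 ± 0.50 (adjusted p = 0.68). Cdkn1b, an inhibitor of cycling, was crossed as well. It was at 10.6, 13.9 and 9.18 CPM in female PGC and 129.8, 132 and 109 CPM in female soma, against 43.7, 37.5 and 53.4 CPM in male PGC and 58.1, 62.6 and 62.1 CPM in male soma (interaction -2.32 ± 0.16). Over the mitosis and cell cycle list 14 of 35 were negative and 4 positive, and over DNA replication 6 of 31 negative and 8 positive. All autosomal genes had 29.4% negative and 27.3% positive. Hhip, which binds Hedgehog ligands, was at 149, 229 and 193 CPM in male soma and 7.89, 9.05 and 8.77 CPM in female soma (interaction 4.59 ± 0.39). The Hedgehog and Notch list held 10 positive and 4 negative of 19.

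**Figure D3:**
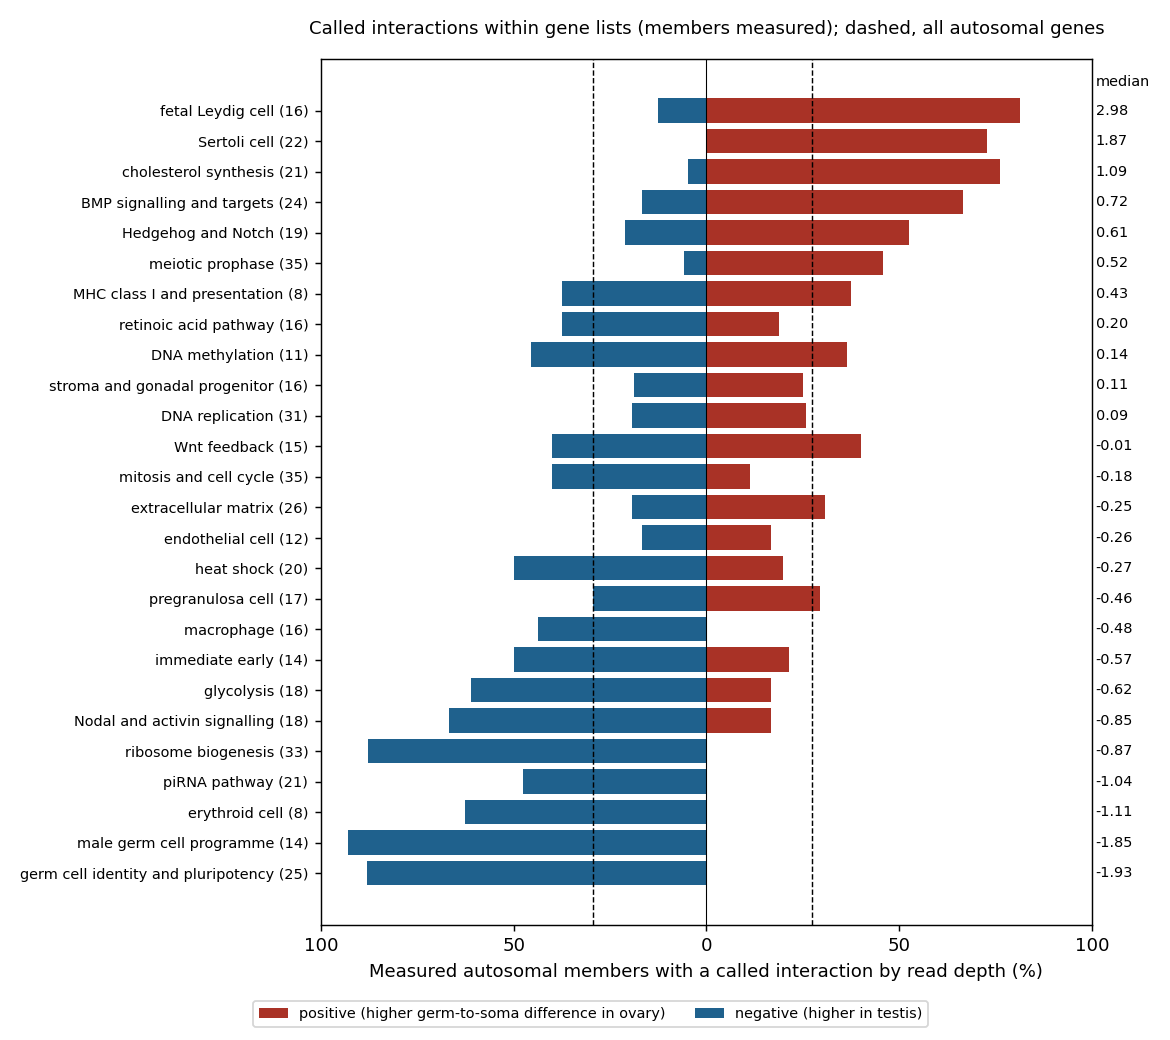
For each of 26 gene lists, the share of its measured autosomal members with a positive called interaction by read depth is drawn to the right and with a negative one to the left, and the list's median interaction is printed at the side. Dashed lines mark all autosomal genes, at 27.3% positive and 29.4% negative. Fetal Leydig, Sertoli and cholesterol genes lie highest, and germ cell identity and male germ cell genes lowest.

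Other lists held both directions: heat shock (4 positive and 10 negative of 20), immediate early genes (3 and 7 of 14), Wnt feedback (6 and 6 of 15), DNA methylation (4 and 5 of 11), stroma (4 and 3 of 16) and endothelium (2 and 2 of 12). Class I presentation gave 3 and 3 of 8, and extracellular matrix 8 and 5 of 26. The shares over all autosomal genes were 27.3% positive and 29.4% negative. Sfrp2, a secreted Wnt antagonist, was at 211, 224 and 155 CPM in female soma, 34.2, 37.7 and 62.5 CPM in male soma, 89.3, 79.2 and 90.1 CPM in male PGC and 32.5, 34.1 and 44.6 CPM in female PGC (interaction -2.72 ± 0.21). Ccnd1, a cyclin, was at 17.9, 18.1 and 19.5 CPM in male PGC and at 78.4 to 200 CPM in the 9 other libraries (interaction 1.69 ± 0.09).

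The cell number table, scaled to spike-in RNA, gave another account of the same contrast. Library medians averaged 5.83 ± 0.04 (SD, n = 3) in male PGC, 5.94 ± 0.13 in female PGC, 4.62 ± 0.54 in male soma and 3.74 ± 0.19 in female soma, in log2 units. The PGC groups overlapped and the soma groups did not. The germ-to-soma difference of medians was larger in the ovary by 0.99 ± 0.34 (SE; two-sided exact permutation test within compartments, p = 0.01 over 400 arrangements). It came mostly from soma, where the female minus male difference of medians was -0.88, against 0.11 in PGCs. Male soma 3 lay above the other male soma libraries, and without it the difference was 0.68 (exact permutation p = 0.015).

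Per cell, 5832 autosomal genes had a called interaction (47.4%), 5195 positive (42.2%) and 637 negative (5.18%), around a median of 0.89. By class, 2396 (41.1%) differed in soma only, 1520 (26.1%) were crossed and 1467 (25.2%) differed in PGCs only. The female soma departed for 2017 genes, 2010 of them positive, which is where the rule places positive genes with soma below PGCs. Of the 3356 genes positive by read depth, 3273 were positive per cell and 83 were not called. Of the 3616 negative by read depth, 611 were negative per cell, 3002 were not called and 3 were positive. With each library centred on its median the per-cell calls were 2983 positive and 3723 negative, and 5015 were of the PGC class. With 1 library left out, the soma class exceeded the PGC class in 9 of 12 fits, up to 3042 against 1300 without male soma 2. In the other 3 the PGC class exceeded the soma class without male soma 3 (2332 against 1575), without female soma 1 (1783 against 1483) and without female soma 2 (1963 against 1336).

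**Figure D4:**
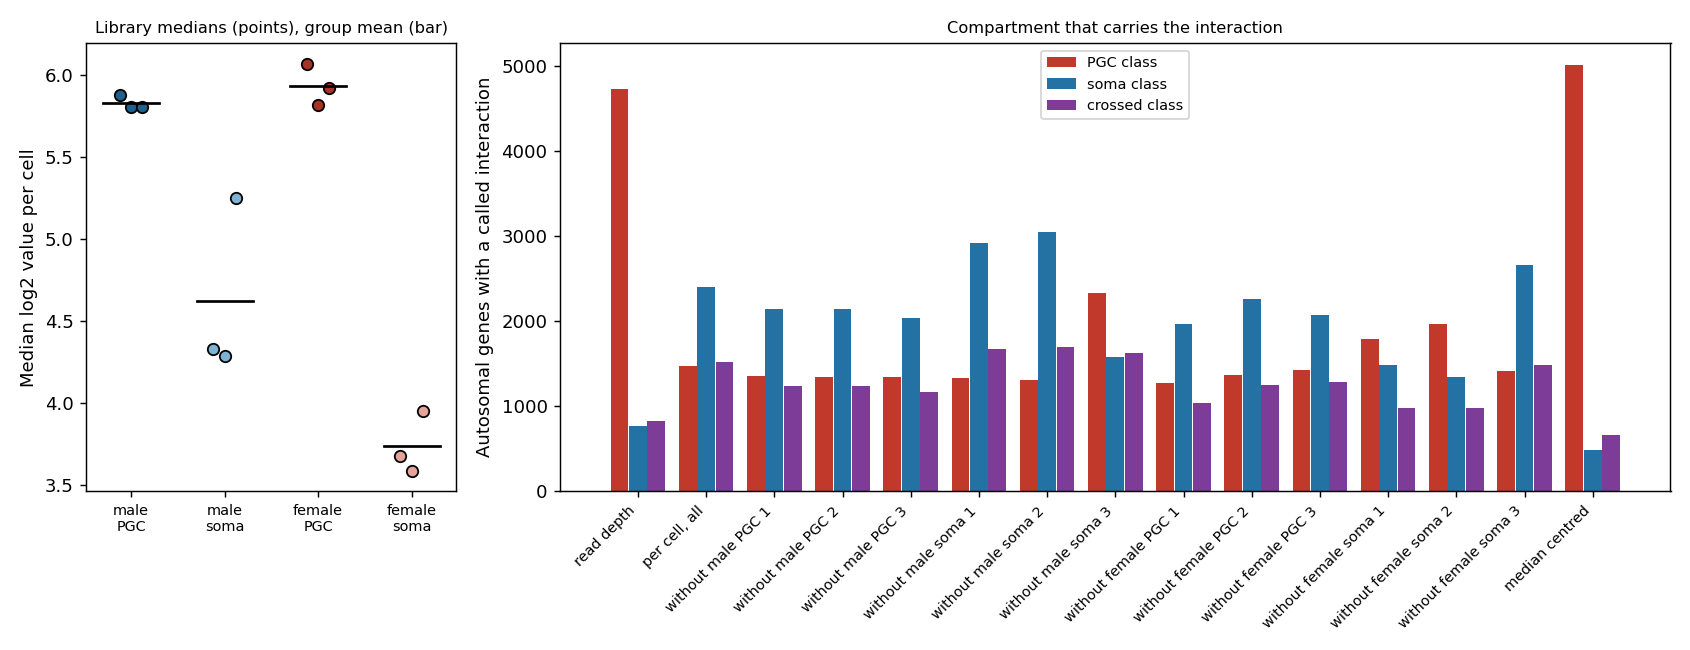
Left, the median log2 value of each library in the cell number table, with 3 points per group and the group mean as a bar. Right, the number of autosomal genes with a called interaction in the PGC, soma and crossed classes, by read depth and per cell with all libraries, without each library in turn, and after centring each library on its median. Per cell the soma class leads with all 12 libraries and in 9 of the 12 fits without 1 library, and the PGC class leads without male soma 3, female soma 1 or female soma 2, after centring and by read depth.

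Of the genes positive by read depth, 0 were called negative per cell by limma. The autosomal median interaction was 0.89 per cell against -0.03 by read depth. This common upward shift made a turn from positive to negative unlikely from the outset, so the 0 is no test of the positive calls. Per cell, Star had an interaction of 8.63 ± 0.59, Fdps 3.55 ± 0.39, H2-K1 7.10 ± 0.52 and Gata2 6.02 ± 0.42. Cholesterol synthesis was positive for 18 of 21 members per cell and negative for 0, with a median of 2.35. Negative interactions of large size were also present per cell: Pmaip1 at -8.22 ± 0.73, Nanos2 at -4.70 ± 1.39, Pou5f1 at -2.78 ± 0.46 and Fst at -4.13 ± 0.69. Germ cell identity genes were negative for 18 of 25 members per cell, with 1 positive and a median of -2.16. Without female soma 1 this was 11 negative, and without the 3 female libraries 4 negative and 1 positive, with a median of -0.93. In that last fit 19.2% of autosomal genes were called, 16.6% positive and 2.65% negative. Ribosome biogenesis had fewer calls per cell, with 4 of 33 negative and 2 positive. Its median there was -0.23, against 0.89 over all autosomal genes. Without male soma 3 it was 16 negative and 2 positive, with a median of -0.58, where 49.7% of autosomal genes were called, 40.4% positive and 9.31% negative. Ncl was at -0.07 ± 0.43 per cell and was not called (adjusted p = 0.9), and Rrp9 at -1.60 ± 0.44 was (adjusted p = 0.0011). After median centring 30 of the 33 were negative and 0 positive, against 30.3% and 24.2% of autosomal genes. Of 26 lists, 15 had a negative median by read depth, and 9 of these had a positive one per cell. The median of all autosomal genes also rose, from -0.03 to 0.89, so a change of sign alone does not show a reversal. Among the 9 were mitosis and cell cycle (-0.18 and 0.72) and heat shock (-0.27 and 0.42), both still under the autosomal median per cell. Mitosis and cell cycle had 4 positive and 14 negative members by read depth, and 13 and 3 per cell.

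X-linked genes, outside the autosomal set, are given for comparison. By read depth 225 of 481 were positive (46.8%) and 77 negative (16%), with a median of 0.37 against -0.03 for autosomal genes. They were called higher in female than in male PGC for 262 genes (54.5%) and in soma for 93 (19.3%).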

How the data were processed

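Titles of the samples gave group and replicate number, and all 12 libraries entered each fit. The authors deposited log2 values in 2 tables of the same 12845 genes, 1 scaled to read depth and 1 read as scaled to cell number. The submitters' processing notes name build mm10 and, with no role or order, limma 3.28.14, edgeR 3.14.0, DESeq2 1.12.3, HTSeq 0.6.1p1, TopHat2 2.0.9, Trim Galore 0.4.0 and R 3.3.0. The sources used here do not give the read depth transform, the strand setting or the gene filter, so overlapping and antisense genes cannot be told apart with certainty. No spike-in genes were analysed here, so the cell number scaling was not checked.

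Whole reads were recovered from the cell number table: 100% of values were whole within 0.001 reads. CPM are shares of these reads, whose median per gene ran from 202 to 894 per library. In at least 3 libraries each gene reached 5.07 CPM. Limits for a count of 0 use 3 reads over the group and cover counting error only. Chi-square per degree of freedom between replicates was 5.43 to 30.5, above sampling noise for every pair. Gene locations are those of GENCODE vM21 (GRCm38), matched by symbol, 12409 by current and 384 by older symbol. Promoter sequences came from RefSeq, and the last 20 bases of 49 of 55 lay in the start of an annotated transcript.

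The interaction was tested with limma 3.58.1 (R 4.3.3), fitted to the deposited log2 values with 4 group means and an intensity trend, and p-values were adjusted by Benjamini-Hochberg over all 12845 genes, at an adjusted p of 0.05. The scripts were tested on simulated data. Voom with TMM scaling on recovered reads was an alternative, as were each library left out, other scalings, variance models, weights and a replicate block. The 27 gene lists were chosen with earlier results of these data known. Genes named were, among called autosomal genes with the same sign in voom and a standard symbol, the 10 most positive and the 10 most negative, 4 per departing group and direction, 6 crossed and 6 with opposite contrasts by size, and in each list the 2 highest in level and the 2 largest in interaction, 131 in all. Results of some named genes are not reported here.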

Additional observations from a re-analysis of the deposited data

Results flagged for a closer look

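In all, 6 results had a germ-to-soma contrast that differed between the gonads by a test of the difference itself, limma's interaction term for the genes and an exact permutation test for the library medians. The first 5 are among the largest interactions among named genes whose contrast was called in opposite directions. Cbln1 (6.79) and Sct (6.64) were higher in PGCs in the ovary and in soma in the testis. Pmaip1 (-6.87), Rasgrp1 (-5.60) and Krt17 (-5.40) were the reverse. Cbln1 rested mostly on male soma, with a soma difference of -5.91 ± 0.13 against a PGC difference of 0.88 ± 0.13. Pmaip1 rested on PGCs, with -6.37 ± 0.28 there and 0.50 ± 0.28 in soma. Sct and Rasgrp1 drew on both compartments: the PGC and soma differences were 3.02 and -3.62 for Sct, and -3.03 and 2.56 for Rasgrp1. The difference between the sexes in the shift of per-cell library medians was 0.99. It came mostly from soma, where female minus male was -0.88, against 0.11 in PGCs.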

How the results depend on the processing

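By read depth the counts of 3356 positive and 3616 negative genes kept within 1.5 times under each alternative except a minimum absolute interaction of 1 (1350 and 1128), which left 1367 genes of the PGC class, 316 of the soma class and 558 opposite contrasts. The soma class of 761 was 469 with voom, 430 without the 3 female libraries and 334 without the lowest 25% of genes. The crossed class of 823 was 1243 with array weights, whose estimation did not converge, and 375 without the 3 female libraries. Median centring moved the read depth calls to 3139 positive and 3898 negative.

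Per cell, positive and negative calls were 2983 and 3723 with median centring, 2829 and 3194 with quantile normalization, and 2038 and 326 without the 3 female libraries. Negative calls were 1669 with array weights and 340 without the lowest 25% of genes. The PGC, soma and crossed classes were 5015, 482 and 659 with median centring and 3893, 767 and 787 with quantile normalization. Without the 3 female libraries the soma and crossed classes were 168 and 103 and opposite contrasts 300. Without the lowest 25% of genes the PGC class was 662 and opposite contrasts 360. The crossed class was 3009 with array weights, and the soma class 1377 when assigned by size. Leaving out 1 library gave 503 to 1146 negative calls, 1265 to 2332 genes of the PGC class, 1336 to 3042 of the soma class, 977 to 1692 crossed and a median shift of 0.68 to 1.16. The shift was 0.83 and not called without the 3 female libraries (exact permutation p = 0.275, 40 arrangements). The cause of these changes was not tested.

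Of 131 named genes, 109 were called by read depth and 89 of them under every alternative other than the minimum size, which 93 passed. Per cell 103 were called, 74 under every alternative, and 100 passed the minimum size. Signs turned for Hspa8 by read depth with quantile normalization (0.055), and per cell for Mki67 with median centring (-0.10), Nr2f2 with quantile normalization (-0.33) and without the 3 female libraries (-0.31), and, also without those, Ddx4 (1.37) and Smc1b (0.61). Deviations from the group mean correlated at -0.36 to 0.07 between same-numbered libraries by read depth, and at -0.18 to 0.26 between differently numbered ones. No pairing was seen by this measure. It cannot tell whether same-numbered libraries shared a litter, because each deviation is from a mean of only 3 libraries. With a replicate block the calls were 3314 positive and 3546 negative by read depth, and 5471 and 649 per cell. Per-cell values of all genes in a library share 1 scaling factor, so their calls move together. Low genes are limited by depth and by the compression of the read depth scale.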
